A study of Mus musculus with 9 samples.

Results

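The Wnt pathway genes described here are 37 named mouse genes, out of 54532 genes in the deposited expression table. They were chosen by name: 2 genes of Wnt release, 8 receptor genes, 4 genes that carry the signal inward, 5 genes of the destruction complex, 7 nuclear factors, 5 feedback inhibitors and 6 target genes. All 37 were found in the table. Their levels were read in 9 RNA libraries of myeloid cells from C57BL/6 mice aged 6 to 8 weeks, with 3 libraries (A, B and C) in each of 3 groups. The fl and Gr_1 groups are labelled wild type, and the KO group is labelled a knockout of Socs3, the gene for a feedback inhibitor of cytokine signalling. The labels do not spell out the names fl and Gr_1, name no Cre driver or targeted exon, give no treatment and do not state whether each library is a different animal. The p-values therefore cover the variation among these libraries only. That may be technical, except between KO A and KO B, which differed in sex-linked RNA (given below). The series is titled for an axis in early-stage myeloid-derived suppressor cells that ends in Wnt, and the comparisons ask how the Wnt genes stood in the libraries labelled KO and in the wild-type groups.

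Wnt proteins are lipid-bearing ligands that Porcn modifies and Wls carries to the cell surface. They bind Frizzled receptors together with Lrp5 or Lrp6, and the signal passes through Dishevelled proteins to the complex of Axin, Apc, Gsk3 and casein kinase 1 that otherwise marks beta-catenin (Ctnnb1) for degradation. Stabilised beta-catenin enters the nucleus and acts with the TCF/LEF factors on target genes, some of which, such as Axin2 and Rnf43, restrain the pathway. Much of this control acts on proteins, which RNA levels do not measure. In blood formation Tcf7 and Lef1 are best known from T cells, and Lef1 also from early B cells.

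Levels are given as deposited, in FPKM: fragments per kilobase of exon and per M (mega) of a divisor for each library. Genes can so be compared per length. Between 18.3 and 21.5 M fragments lay behind each library. The divisors recovered from the values were not these totals. They were 22.0, 20.8 and 18.5 M in fl, 19.9, 21.7 and 21.7 M in KO and 16.0, 18.2 and 16.0 M in Gr_1. The divisor lay above the fragment total in every fl and KO library and below it in every Gr_1 library. A gene with 1 kilobase of exon needs between 0.136 and 0.187 FPKM to hold 3 fragments. Socs3 itself stood at 3.87, 4.02 and 3.41 FPKM in fl. It was 9.23, 6.76 and 8.37 FPKM in KO and 37.0, 36.6 and 33.0 in Gr_1, so the knockout label is not matched by a lower Socs3 level than in fl, and KO stands throughout for the libraries so labelled, with every direction given for them resting on that label. Markers of the labelled myeloid cells were abundant in every library, with a sum of at least 63920 FPKM over 12 neutrophil markers, but they differed between groups. That sum was 63920 to 71140 FPKM in fl, 69870 to 100500 in KO and 169800 to 172700 in Gr_1, with 7 of the 12 markers called higher in KO and 11 higher in Gr_1 than in fl. Of 12 monocyte markers 11 were called lower in KO than in fl and 11 lower in Gr_1. The part of this make-up in the members' levels was not tested. The myeloid lysozyme gene Lyz2 stood at 53.2 to 59.8 FPKM in KO against 8670 or more in the other groups. Library KO A carried Y-linked RNA with almost no Xist (0.0028 FPKM), KO B carried Xist (58.5 FPKM) with no Y-linked fragment, and KO C carried both (26.3 FPKM of Xist and 14.2 of the summed Y-linked genes). In fl and Gr_1 Xist did not pass 0.0104 FPKM in any library, and the summed Y-linked genes stood at 16.6 to 39.3 FPKM. Each comparison with KO so sets KO B and KO C, which carried Xist, beside libraries with almost none. The part of this in the members' levels was not tested. KO C lay between KO A and KO B for 17 of the 26 members tested and for 61.5% of all genes tested, so whether the 3 libraries labelled KO are independent is not settled by the labels, and results are also given without KO C or with KO A alone where that changes a call.

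At a mean of 1 FPKM or more, 23 members were expressed in fl, 24 in KO and 21 in Gr_1. Every library of the group reached 1 FPKM for 22, 23 and 20 of them. The group means fell on different sides of this level for 9 members. Fzd4 reached a mean of 1 FPKM in fl alone, Rnf43 in KO alone, and Fzd5 and Lef1 in Gr_1 alone. Fzd7, Tcf7, Axin2 and Bambi reached it in fl and KO but not in Gr_1, and Jag1 in KO and Gr_1 but not in fl. Several of these means lay close to 1 FPKM. In fl they were 0.986 for Rnf43, 0.912 for Jag1 and 1.05 for Tcf7. In Gr_1 they were 0.993 for Axin2, 0.950 for Bambi and 0.944 for Fzd7.

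**Figure D1:**
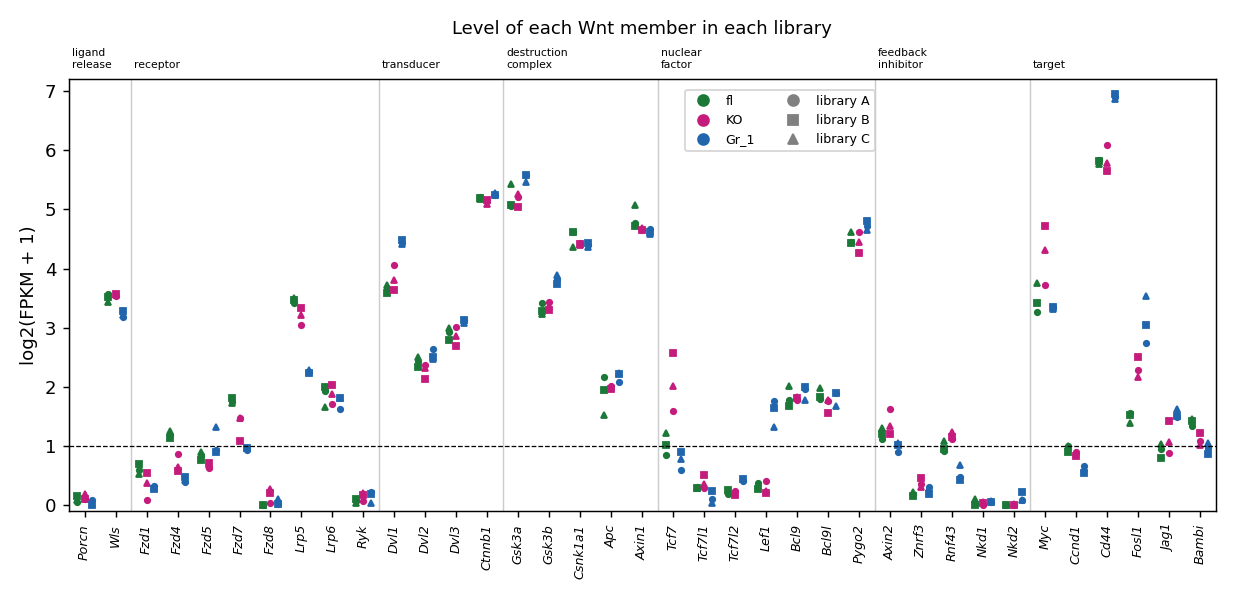
Level of each of the 37 members on the log2(FPKM + 1) scale, with 1 marker per library, coloured by group and shaped by library letter. Cd44 and Gsk3a had the highest group means, at 49.1 to 122 and 31.9 to 46.7 FPKM over the libraries, while 9 members stayed under 1 FPKM in all 9 libraries.

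Of the 37 members, 26 reached 1 FPKM in at least 3 libraries and were tested with limma on log2(FPKM + 1) among 12289 genes. The other 11 were not tested, and their levels are given by role. Between the libraries labelled KO and fl, 3 of the 26 were called at an adjusted p under 0.05, 2 higher (Tcf7 and Fosl1) and 1 lower (Fzd4), which is 11.5% of those tested. Over all genes tested 11.0% were called, 4.48% higher and 6.52% lower, so the share of members called was near the background. The libraries of KO and fl did not overlap for 10 of the 26, against 31.4% of all genes tested. The median log2 difference of the 26 was -0.01, the same as that of all genes tested to 2 decimals. The number of calls was small and moved with single libraries: no member was called by limma without fl A, without fl B or without KO C, and 5 were called without KO A. Fzd4 was not among the genes tested without fl A or fl B, since it reached 1 FPKM in the fl libraries alone, so there its call was removed by the filter. With all libraries 7 had an unadjusted p under 0.05. Quantile normalization called 2 higher and 3 lower.

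Between Gr_1 and fl 13 of the 26 were called, 7 higher and 6 lower in Gr_1, or 50.0%. The background was 61.4% of all genes, 30.0% higher and 31.4% lower. Between the libraries labelled KO and Gr_1 17 were called, 7 higher and 10 lower in KO, or 65.4%, against a background of 55.7%, with 26.7% higher and 28.9% lower. Libraries of Gr_1 and fl did not overlap for 18 of the 26, against 67.5% of all genes tested. Those of KO and Gr_1 did not overlap for 20 of the 26, against 68.2%. A lack of overlap with Gr_1 was so common to most genes tested. With KO A as the only KO library the calls of Fzd4, Tcf7 and Fosl1 against fl were lost (adjusted p = 0.234, 0.161 and 0.161), as were those of Wls, Dvl2, Dvl3, Gsk3a, Pygo2, Myc and Fosl1 against Gr_1 (adjusted p = 0.0632 to 0.517). Rnf43 was not tested with KO A as the only KO library. The 3 comparisons share their libraries in pairs and are not independent of each other. How the libraries are scaled moved these splits. Between KO and Gr_1 the split was 10 higher and 5 lower with the 10 most abundant genes left out of the scaling, and 9 and 7 with quantile normalization. With the fragments scaled to library totals (limma voom) the split was 6 higher and 12 lower in Gr_1 than in fl, and 13 higher and 4 lower in KO than in Gr_1. That scaling also moved the median of all genes to -0.33 and 0.35 in these comparisons, from -0.03 and 0.01. It replaces the FPKM divisors, which lay below the fragment totals in Gr_1 and above them in fl and KO.

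**Figure D2:**
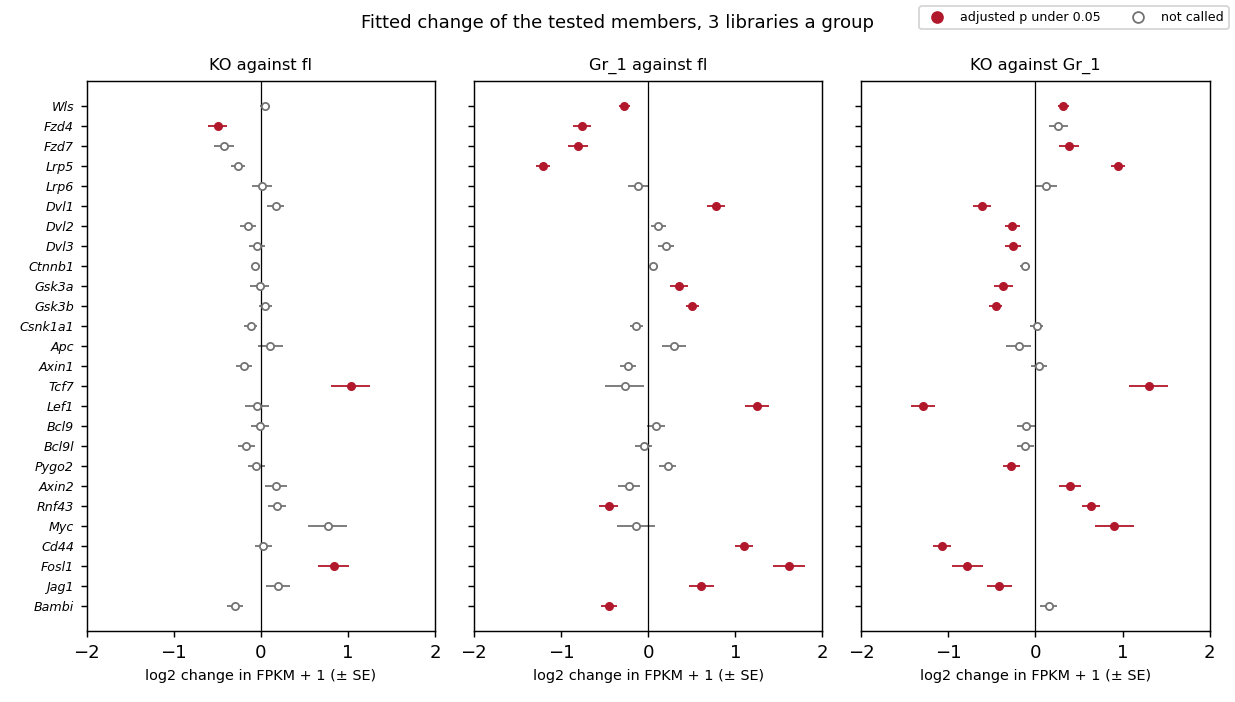
Fitted log2 difference in FPKM + 1, with its standard error, for the 26 tested members in the 3 comparisons of 3 libraries a group. Filled red points are called at an adjusted p under 0.05, which holds for 3, 13 and 17 members from left to right.

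Of the 5 tested genes that release or receive Wnt, 4 were called lower in Gr_1 than in fl, where 31.4% of all genes were: Wls, Fzd4, Fzd7 and Lrp5. This count includes Fzd4, which passed the filter through the fl libraries alone, so the filter favoured its direction. The libraries labelled KO lay between the other groups for Fzd4, Fzd7 and Lrp5. Wls, the carrier of Wnt proteins to the cell surface, had 10.9, 10.5 and 9.77 FPKM in fl, 10.5, 10.9 and 10.7 in KO and 8.10, 8.79 and 8.32 in Gr_1. The Gr_1 libraries lay below all the others, while fl and KO overlapped. The log2 difference of Wls was -0.27 ± 0.06 (SE) from fl to Gr_1 (limma, adjusted p = 0.00412) and 0.32 ± 0.06 from Gr_1 to KO (adjusted p = 0.00228). Porcn, the enzyme that attaches the lipid to Wnt proteins, did not pass 0.138 FPKM in any library.

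Fzd4, a Frizzled receptor, is ENSMUSG00000049791 on the plus strand of chromosome 7 from 89404355 to 89413134 (GRCm38). It stood at 1.29, 1.19 and 1.39 FPKM in fl, 0.816, 0.493 and 0.575 in KO and 0.316, 0.393 and 0.353 in Gr_1. No 2 of the 3 groups overlapped. Mean levels were 1.29 ± 0.101, 0.628 ± 0.168 and 0.354 ± 0.0389 FPKM (SD, n = 3 each), so fl was 2.06-fold above KO and 3.65-fold above Gr_1. On the log2(FPKM + 1) scale, which understates the change of low genes, the difference was -0.50 ± 0.11 from fl to KO (limma, adjusted p = 0.0211, with all 3 libraries lower) and -0.76 ± 0.11 from fl to Gr_1 (adjusted p = 0.00034). The call between KO and fl was lost without KO B (adjusted p = 0.0522), without KO C (adjusted p = 0.0881) and with the 2 groups fitted alone (adjusted p = 0.0613). Fzd4 entered the test through the fl libraries alone, the group in which it is high. Without a filter on low values its adjusted p between KO and fl was 0.0324. Between KO and Gr_1 Fzd4 was not called (0.26 ± 0.11, adjusted p = 0.0675), but was with the 10 most abundant genes left out of the scaling (adjusted p = 0.0239), with quantile normalization (0.0426) and under voom (0.00133). For any single gene the exact permutation test of 3 against 3 libraries cannot go below p = 0.1.

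Fzd7, a further Frizzled receptor, showed the same order of levels. The fl libraries held 2.37, 2.53 and 2.30 FPKM, the KO libraries 1.79, 1.13 and 1.78, and Gr_1 0.922, 0.960 and 0.951, with no overlap between any of the groups. It was lower in Gr_1 than in fl by a log2 difference of -0.81 ± 0.11 (limma, adjusted p = 0.000331), and KO lay above Gr_1 by 0.39 ± 0.11 (adjusted p = 0.0184). The difference of -0.42 ± 0.11 between KO and fl missed the threshold (adjusted p = 0.0503), and passed it with quantile normalization (0.0444), under voom (0.0313) and without KO A (0.0498). Without KO C the difference between KO and Gr_1 missed it too (adjusted p = 0.0731), as it did without KO A (0.0576) and without Gr_1 A (0.0525).

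Lrp5, a co-receptor that binds Wnt beside a Frizzled, stood at 9.74, 10.02 and 10.3 FPKM in fl, 7.28, 9.12 and 8.32 in KO and 3.75, 3.69 and 3.88 in Gr_1. The groups did not overlap, and fl was 2.66-fold above Gr_1. The log2 difference was -1.21 ± 0.08 from fl to Gr_1 (limma, adjusted p = 5.5e-06) and 0.95 ± 0.08 from Gr_1 to KO (adjusted p = 4.5e-05), both called under every alternative run that tested the gene. From fl to KO it was -0.26 ± 0.08 (adjusted p = 0.0705), and -0.33 and called without KO B (0.0323). Its close relative Lrp6 did not pass the test in any comparison, at 2.10 to 3.08 FPKM over the 9 libraries with all groups overlapping.

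Among the receptors that were not tested, Fzd5 ranged from 0.553 to 1.52 FPKM and Fzd1 from 0.0720 to 0.631. Ryk, a Wnt receptor of another family, did not pass 0.165 FPKM. Fzd8 had no fragment in the fl libraries. In KO it had 4, 20 and 27 fragments and in Gr_1 2, 2 and 7, and it stayed at or under 0.206 FPKM. Summed over all 10 Frizzled genes, the level was 5.42 ± 0.0251 FPKM in fl, 3.72 ± 0.420 in KO and 3.63 ± 0.338 in Gr_1 (SD, n = 3 each). The sums of fl lay above all the others, and those of KO and Gr_1 overlapped.

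Of the genes that carry the signal inward, Dvl1, which codes for a Dishevelled protein, was higher in Gr_1. It stood at 11.8, 11.0 and 12.3 FPKM in fl, 15.7, 11.4 and 12.9 in KO and 20.5, 21.5 and 20.3 in Gr_1. The Gr_1 libraries lay above all others, while KO and fl overlapped. The log2 difference was 0.78 ± 0.10 from fl to Gr_1 (limma, adjusted p = 0.000222) and -0.61 ± 0.10 from Gr_1 to KO (adjusted p = 0.00116). Its relative Dvl2 had 4.39, 4.07 and 4.67 FPKM in fl, 4.19, 3.40 and 3.99 in KO and 5.27, 4.66 and 4.55 in Gr_1. KO and Gr_1 did not overlap, and fl overlapped both. Dvl3 had 6.59, 5.90 and 6.96 FPKM in fl, 7.06, 5.44 and 6.24 in KO and 7.75, 7.74 and 7.44 in Gr_1, with Gr_1 above groups that overlapped. Both genes were called lower in KO than in Gr_1, by -0.26 ± 0.09 (adjusted p = 0.0304 and 0.0380). With the 10 most abundant genes left out of the scaling neither was called (adjusted p = 0.370 and 0.486). Under voom these differences turned to 0.02 and 0.04 (adjusted p = 0.899 and 0.706), against a median of 0.35 over all genes. Both calls, like that of Pygo2 described among the nuclear factors, were lost when KO B, KO C, Gr_1 A or Gr_1 B was left out (adjusted p = 0.0566 to 0.122), and Dvl3 also without fl A (0.0530) or Gr_1 C (0.0661).

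Ctnnb1, the gene for beta-catenin (ENSMUSG00000006932, chromosome 9), was among the most abundant members, with only Cd44 and Gsk3a at a higher mean in each group. It stood at 35.7, 35.7 and 35.1 FPKM in fl, 34.2, 34.5 and 33.0 in KO and 36.7, 36.9 and 37.6 in Gr_1. The groups did not overlap, yet the differences were small: -0.07 ± 0.05 from fl to KO (limma, adjusted p = 0.454) and 0.06 ± 0.05 from fl to Gr_1 (adjusted p = 0.334). From Gr_1 to KO the difference was -0.12 ± 0.05, which was nearer the threshold but not called (adjusted p = 0.0629). The RNA level of Ctnnb1 says nothing of how much beta-catenin protein was stable.

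In the destruction complex, both genes of glycogen synthase kinase 3, which phosphorylates beta-catenin, were higher in Gr_1. Gsk3b had 9.74, 8.72 and 8.39 FPKM in fl, 9.79, 8.82 and 9.27 in KO and 13.1, 12.4 and 13.8 in Gr_1. Gr_1 lay above the other groups, which overlapped, with a log2 difference of 0.50 ± 0.07 from fl (limma, adjusted p = 0.000389) and of -0.45 ± 0.07 from Gr_1 to KO (adjusted p = 0.000949). Under voom the second difference was -0.15 and not called (adjusted p = 0.122). Gsk3a had 32.3, 32.5 and 41.9 FPKM in fl, 36.0, 31.9 and 37.4 in KO and 46.7, 46.6 and 43.1 in Gr_1, again with Gr_1 apart from groups that overlapped. Its log2 difference from fl to Gr_1, 0.35 ± 0.11 (adjusted p = 0.0187), was not called without fl A (0.0666), fl B (0.0677), Gr_1 A (0.0568) or Gr_1 B (0.0577). From Gr_1 to KO it was -0.37 ± 0.11 (adjusted p = 0.0180), a call lost without KO B (0.0623), Gr_1 A (0.0557) or Gr_1 B (0.0571). Under voom neither Gsk3a difference was called, at 0.07 (adjusted p = 0.530) and -0.04 (0.755). The second was also lost with the 10 most abundant genes left out (0.133) and with quantile normalization (0.127).

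The 3 other genes of the complex did not pass the test in any comparison. The kinase gene Csnk1a1 ranged from 19.7 to 23.5 FPKM, and the scaffold genes Axin1 from 22.9 to 32.6 and Apc from 1.90 to 3.73. Axin1 came closest, with a log2 difference of -0.23 ± 0.09 from fl to Gr_1 (limma, adjusted p = 0.0514) and the fl libraries above all the others.

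Among the nuclear factors, Tcf7 and Lef1 differed in opposite directions between the libraries labelled KO and Gr_1. Tcf7 (TCF-1) was higher in the libraries labelled KO than in either wild-type group, and Lef1 was higher in Gr_1. Tcf7 is ENSMUSG00000000782 (chromosome 11, 52252371 to 52283014, minus strand). Its levels were 0.796, 1.03 and 1.34 FPKM in fl, 2.03, 4.94 and 3.05 in KO, and 0.523, 0.860 and 0.714 in Gr_1, from 46, 56 and 65 fragments in fl, 106, 282 and 174 in KO and 22, 41 and 30 in Gr_1. The KO libraries lay above all others and spread 2.43-fold among themselves, while fl and Gr_1 overlapped. Mean levels were 1.05 ± 0.272, 3.34 ± 1.48 and 0.699 ± 0.169 FPKM (SD, n = 3 each), so KO was 3.17-fold above fl and 4.78-fold above Gr_1. The log2 difference was 1.03 ± 0.22 from fl to KO (limma, adjusted p = 0.0207, with all 3 libraries higher) and 1.30 ± 0.22 from Gr_1 to KO (adjusted p = 0.00128). The call against fl was lost without fl A (adjusted p = 0.0706), without fl B (0.0675) and without KO C (0.0678). It was also lost without a filter on low values (0.0611) and with the 2 groups fitted alone (0.0566). With KO A as the only KO library the difference was 0.57. Against Gr_1 the call held under every alternative run, with an adjusted p of at most 0.0209.

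Lef1 is ENSMUSG00000027985, on the plus strand of chromosome 3 from 131110471 to 131224356. It stood at 0.305, 0.219 and 0.258 FPKM in fl, 0.332, 0.157 and 0.188 in KO and 2.41, 2.14 and 1.49 in Gr_1, from 30 to 59 fragments in each fl and KO library and from 210 to 341 in each Gr_1 library. Gr_1 lay far above both other groups, which overlapped. The Gr_1 mean of 2.01 ± 0.473 FPKM was 7.72-fold above fl (0.261 ± 0.0430) and 8.92-fold above KO (0.226 ± 0.0934; SD, n = 3 each). On the log2(FPKM + 1) scale the difference was 1.25 ± 0.14 from fl to Gr_1 (limma, adjusted p = 7.4e-05) and -1.29 ± 0.14 from Gr_1 to KO (adjusted p = 0.000109). Lef1 entered the test through the 3 Gr_1 libraries alone, the group in which it is high, and is not tested when any of them is left out. Without a filter on low values the adjusted p was 0.000216 from fl to Gr_1 and 0.000342 from Gr_1 to KO. Both calls held under every alternative run that tested Lef1. Between KO and fl the difference was -0.04 ± 0.14 (adjusted p = 0.872).

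As a share of the summed FPKM of the 4 TCF/LEF genes, Tcf7 made up 53.4% to 67.0% in fl, 73.3% to 87.5% in KO and 15.6% to 27.4% in Gr_1. Lef1 made up 57.3% to 72.0% in Gr_1 and at most 20.5% in any other library. The other factors of the family were too low to be tested: Tcf7l2 stood at 0.146, 0.204 and 0.179 FPKM in fl, 0.179, 0.126 and 0.158 in KO and 0.336, 0.366 and 0.364 in Gr_1, where the Gr_1 libraries lay above the others, and Tcf7l1 did not pass 0.422 FPKM. The beta-catenin co-factor genes Bcl9 (2.20 to 3.03 FPKM) and Bcl9l (1.97 to 2.96 FPKM) passed no test. Pygo2, which acts with them, had 20.8, 20.7 and 23.5 FPKM in fl, 23.5, 18.2 and 20.9 in KO and 25.2, 27.0 and 24.0 in Gr_1. It was called lower in KO than in Gr_1 by -0.28 ± 0.10 (limma, adjusted p = 0.0364), a difference that under voom was 0.05 (adjusted p = 0.615) and that was also not called with the 10 most abundant genes left out (0.486), with quantile normalization (0.263) or with the title letter as a replicate block (0.0619).

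**Figure D3:**
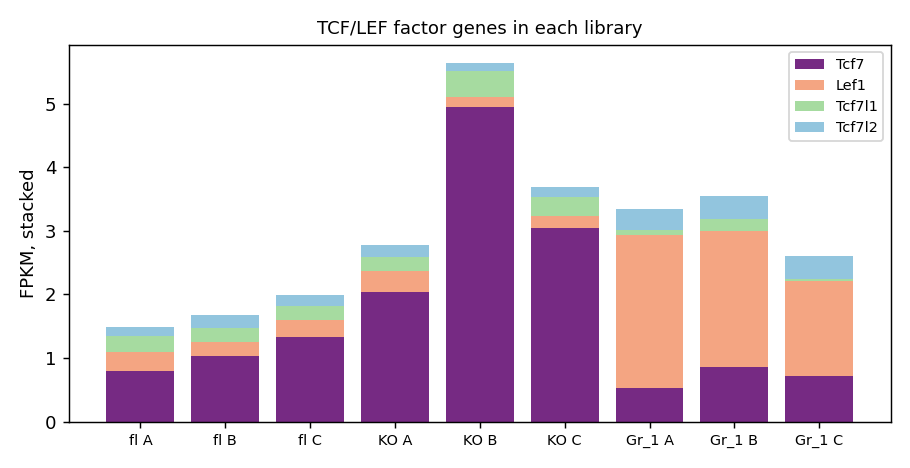
FPKM of the 4 TCF/LEF factor genes in each of the 9 libraries, stacked. Tcf7 makes up most of each bar in fl and in KO, and Lef1 most of each bar in Gr_1.

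Markers of lymphocytes and progenitors, cells in which Tcf7 or Lef1 is also expressed, differed between the groups too, for Tcf7 in the same direction only in part. The libraries are bulk RNA, in which fewer cells of a type and less RNA per cell cannot be told apart. The summed level of 20 T cell markers was 9.31 to 12.6 FPKM in fl, 29.6 to 39.7 in KO and 26.0 to 29.3 in Gr_1, and 8 of the 10 tested were called higher in KO than in fl. Without Il7r, the most abundant, the sum was 7.89 to 11.05 FPKM in fl, 27.8 to 38.2 in KO and 18.9 to 21.8 in Gr_1. Between Gr_1 and fl, where Tcf7 was not called, 7 of the 10 were called higher in Gr_1, and between KO and Gr_1 3 were called higher and 3 lower. The T cell receptor genes themselves were low: Trac stood at 0.243, 0.670 and 0.289 FPKM in fl, 1.94, 2.16 and 2.71 in KO and 0.667, 0.471 and 0.200 in Gr_1, and Cd3e did not pass 0.407 FPKM. Cd3d, by contrast, was highest in Gr_1, at 0.393 ± 0.189 FPKM in fl, 2.29 ± 0.294 in KO and 4.04 ± 0.652 in Gr_1 (SD, n = 3 each). Themis was at 0 in all Gr_1 libraries and no other T cell marker was at 0 throughout a group.

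Of 12 NK cell markers 5 of the 8 tested were called higher in KO than in fl. All 8 were called higher in KO than in Gr_1, and 4 lower in Gr_1 than in fl. The sum of the 12 was 143 to 208 FPKM in fl, 141 to 276 in KO and 17.0 to 25.3 in Gr_1, most of it Nkg7, and without Nkg7 10.5 to 15.3, 23.3 to 49.9 and 3.72 to 6.48. The sum of 12 progenitor markers was 52.5 to 57.8 FPKM in fl, 74.8 to 99.6 in KO and 67.1 to 77.7 in Gr_1, with 4 of 8 tested called higher in KO than in fl and Spink2 at 0 in all Gr_1 libraries. Of 8 basophil and mast cell markers all 7 tested were called higher in KO than in fl, with sums of 115.5 to 242 FPKM in fl, 394 to 501 in KO and 191 to 307 in Gr_1. KO B held the highest and KO A the lowest sum of the 3 KO libraries in all of these lists, as for Tcf7 and Myc. B cell markers moved with Lef1 instead: 14 of 14 tested were called higher in Gr_1 than in fl and 0 of 14 in KO (1 at an unadjusted p under 0.05), and the sum of all 15 was 246 to 285 FPKM in fl, 193 to 265 in KO and 747 to 826 in Gr_1. No NK cell or B cell marker was at 0 throughout a group. The part of these cells in the levels of Tcf7 and Lef1 was not tested.

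**Figure D4:**
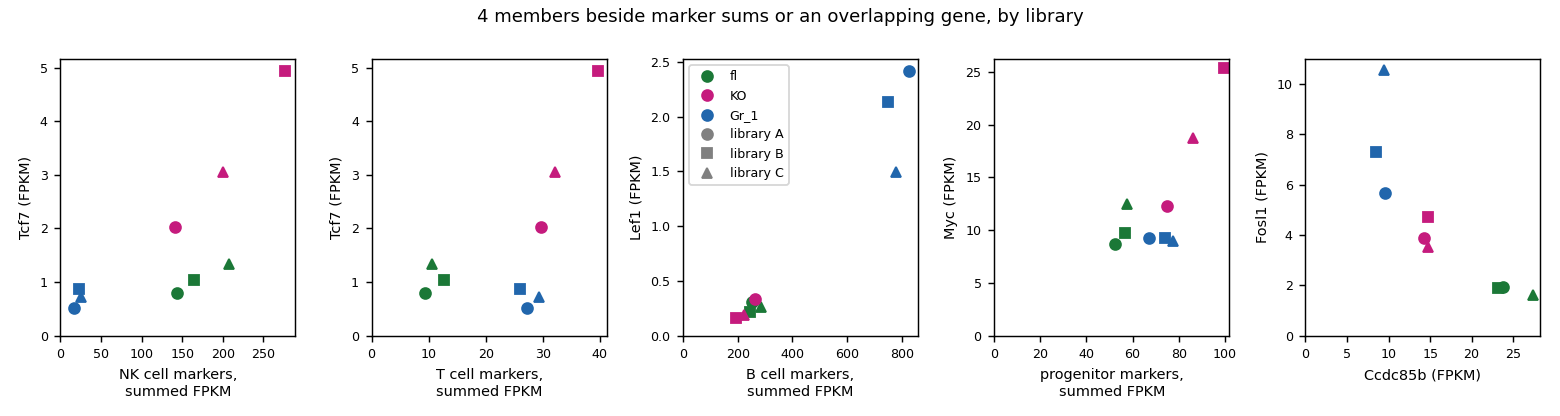
Level of 4 members in FPKM, in 5 panels, against the summed FPKM of a marker list, or against the overlapping gene Ccdc85b for Fosl1, with 1 marker per library, coloured by group and shaped by library letter. The KO libraries lie highest for Tcf7 and the Gr_1 libraries highest for Lef1 and Fosl1.

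The feedback inhibitors were low in all groups, and the 2 that could be tested, Axin2 and Rnf43, had their lowest means in Gr_1. Axin2, a scaffold gene that is the most widely used readout of beta-catenin signalling, stood at 1.18, 1.32 and 1.48 FPKM in fl, 2.09, 1.29 and 1.53 in KO and 0.861, 1.03 and 1.09 in Gr_1. The Gr_1 libraries lay below all the others, and KO overlapped fl through KO B, with KO A and KO C above all fl libraries. Mean levels were 1.33 ± 0.152, 1.64 ± 0.410 and 0.993 ± 0.118 FPKM (SD, n = 3 each). The log2 difference from fl to KO was 0.17 ± 0.12 (limma, adjusted p = 0.424) and that from fl to Gr_1 -0.22 ± 0.12 (adjusted p = 0.148). Under voom, which adds no 1 to the FPKM and sets the median of all genes at -0.33, the second was -0.71 and called (adjusted p = 0.00846). From Gr_1 to KO it was 0.40 ± 0.12 (adjusted p = 0.0242), a call lost without KO A (0.0672), KO C (0.0502), Gr_1 A (0.0830) or Gr_1 B (0.0564). The order within KO differed from that of Tcf7: KO A was the highest library for Axin2 and the lowest for Tcf7.

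Rnf43, a ubiquitin ligase that removes Frizzled receptors from the surface, had 0.887, 0.933 and 1.14 FPKM in fl, 1.18, 1.23 and 1.35 in KO and 0.400, 0.353 and 0.600 in Gr_1. No 2 of the 3 groups overlapped. It was lower in Gr_1 than in fl by -0.45 ± 0.11 on the log2(FPKM + 1) scale (limma, adjusted p = 0.00520) and higher in KO than in Gr_1 by 0.64 ± 0.11 (adjusted p = 0.00107, 2.79-fold), while KO against fl was not called (0.19 ± 0.11, adjusted p = 0.308). Only the 3 KO libraries and fl C reached 1 FPKM, so Rnf43 passed the filter largely through KO, the group in which it is high. Both calls of Rnf43 held under every alternative run that tested it, with an adjusted p of at most 0.0267. Its relative Znrf3 did not pass 0.379 FPKM. Nkd1 and Nkd2, inhibitors that bind Dishevelled, stayed under 0.172 FPKM, with no Nkd2 fragment in fl, 1, 1 and 2 in KO and 5, 15 and 5 in Gr_1.

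Of the 5 target genes tested, 1 was called higher in KO than in fl, where 4.48% of all genes tested were. In Gr_1 against fl 3 were called higher and 1 lower, with 30.0% and 31.4% of all genes. In KO against Gr_1 1 was called higher and 3 lower, with 26.7% and 28.9% of all genes. Myc, the gene for a growth-promoting transcription factor, is on chromosome 15 from 61985391 to 61990374 (plus strand). It stood at 8.67, 9.75 and 12.5 FPKM in fl, 12.2, 25.4 and 18.8 in KO and 9.25, 9.22 and 9.01 in Gr_1. KO A lay just below fl C, so KO and fl overlapped, while all KO libraries lay above all Gr_1 libraries. Mean levels were 10.3 ± 1.98, 18.8 ± 6.57 and 9.16 ± 0.133 FPKM (SD, n = 3 each). The log2 difference from fl to KO, 0.77 ± 0.22, was not called (limma, adjusted p = 0.0611), but was 1.03 and called without KO A (adjusted p = 0.00741). It was also called at a mean of at least 5 FPKM (0.0490), with the 10 most abundant genes left out (0.0400) and under voom (0.0348). From Gr_1 to KO it was 0.91 ± 0.22 (adjusted p = 0.00788), and with KO A as the only KO library 0.38 (adjusted p = 0.149).

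Cd44, an adhesion receptor of leukocytes, was the most abundant member. Its levels were 56.2, 55.3 and 53.3 FPKM in fl, 66.7, 49.1 and 53.8 in KO and 118, 122 and 116 in Gr_1. Gr_1 stood apart at 2.16-fold the mean of fl, and KO overlapped fl. The log2 difference was 1.10 ± 0.10 from fl to Gr_1 (limma, adjusted p = 3.1e-05) and -1.07 ± 0.10 from Gr_1 to KO (adjusted p = 7.2e-05), both called under every alternative run. Cyclin D1 (Ccnd1), a driver of the G1 phase, was not tested, since only 1 library reached 1 FPKM. It had 1.004, 0.880 and 0.999 FPKM in fl, 0.876, 0.781 and 0.849 in KO and 0.583, 0.456 and 0.530 in Gr_1, with no overlap between the groups. LTO1 on the opposite strand overlaps 1100 of the 4709 exon bases of Ccnd1. Its levels were 2.51 to 2.76 FPKM in fl, 2.66 to 3.18 in KO and 3.27 to 3.54 in Gr_1.

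Fosl1 (FRA-1), a subunit of the AP-1 transcription factor, was lowest in fl and highest in Gr_1. It is ENSMUSG00000024912, on the plus strand of chromosome 19 from 5447547 to 5455946. Its levels were 1.94, 1.89 and 1.62 FPKM in fl, 3.89, 4.71 and 3.50 in KO and 5.67, 7.29 and 10.5 in Gr_1, from 61 to 87 fragments per fl library and 155 or more in each other library. No 2 of the 3 groups overlapped. KO was 2.22-fold above fl, with a log2 difference of 0.83 ± 0.18 (limma, adjusted p = 0.0215, with all 3 libraries higher), and Gr_1 4.31-fold above fl, with 1.61 ± 0.18 (adjusted p = 9.1e-05). From Gr_1 to KO it was -0.78 ± 0.18 (adjusted p = 0.00619). The call between KO and fl was lost when fl A (0.0545), fl B (0.0636), fl C (0.0614), KO B (0.0586) or KO C (0.0514) was left out. It was also lost without a filter on low values (0.0607). Ccdc85b on the opposite strand overlaps 1163 of the 2033 exon bases of Fosl1, and no source used here says whether the counting used strand. Ccdc85b ran in the opposite order, at 23.2 to 27.4 FPKM in fl, 14.3 to 14.8 in KO and 8.50 to 9.53 in Gr_1.

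Jag1, a Notch ligand, had 0.944, 0.744 and 1.05 FPKM in fl, 0.855, 1.69 and 1.10 in KO and 1.82, 1.83 and 2.10 in Gr_1. Gr_1 lay above the other groups, which overlapped. The log2 difference was 0.61 ± 0.14 from fl to Gr_1 (limma, adjusted p = 0.00491) and -0.41 ± 0.14 from Gr_1 to KO (adjusted p = 0.0334). The second of these was lost when KO A, KO C or any Gr_1 library was left out (adjusted p = 0.0655 to 0.104), with a replicate block (0.0537), with the 10 most abundant genes left out (0.117) and under voom (0.175). Bambi, a decoy receptor of TGF-beta signalling, had 1.53, 1.69 and 1.75 FPKM in fl, 1.13, 1.33 and 1.04 in KO and 0.965, 0.820 and 1.07 in Gr_1. The fl libraries lay above the rest, and KO and Gr_1 overlapped. It was lower in Gr_1 than in fl by -0.45 ± 0.10 (adjusted p = 0.00324), and the -0.30 ± 0.10 between KO and fl was not called (adjusted p = 0.0867), except with quantile normalization (0.0497). Between KO and Gr_1 it was called under voom (0.00750) and with the 10 most abundant genes left out (0.0416) but not in the fit reported (0.15 ± 0.10, adjusted p = 0.206).

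TCF/LEF factors bind DNA at a core of CTTTGA letters, and the members' promoters were searched for it because Tcf7 and Lef1 differed in opposite directions between KO and Gr_1. RefSeq start sites on GRCm38.p6 gave 33 windows of 250 bases before the start for 24 of the 37 members. Porcn, Fzd8, Lrp5, Lrp6, Csnk1a1, Apc, Axin1, Bcl9l, Znrf3, Myc, Ccnd1, Fosl1 and Bambi had no entry. CTTTGA or its reverse complement TCAAAG occurred in 4 of the 33 windows (12.1%), against 4544 of 32851 windows (13.8%) over all genes. The 4 windows belong to Lef1 (a start inside the gene), Gsk3a, Gsk3b and Fzd1. Those of the 3 members that were called higher in Gr_1 are printed below in lower case with each match in capitals, followed by Axin2, the standard readout of the pathway, whose window at this start held no match. All read 5′ to 3′ on the strand of the gene. The Fzd1 window is not printed. Fzd1 was not tested and stood lower in Gr_1 (0.210 to 0.253 FPKM) than in fl (0.451 to 0.631), with 0.0720 to 0.471 FPKM in KO. The other Lef1 windows, at other starts of the gene, held no match. A match is only a description of letters and no evidence of binding.
Lef1, chr3:131156044-131156293, plus strand: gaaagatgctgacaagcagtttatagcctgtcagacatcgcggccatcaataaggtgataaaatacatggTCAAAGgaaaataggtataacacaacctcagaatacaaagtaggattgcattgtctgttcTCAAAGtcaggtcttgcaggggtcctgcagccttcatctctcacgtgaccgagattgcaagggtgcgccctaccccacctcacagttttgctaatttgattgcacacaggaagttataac
Gsk3a, chr7:25237852-25238101, minus strand: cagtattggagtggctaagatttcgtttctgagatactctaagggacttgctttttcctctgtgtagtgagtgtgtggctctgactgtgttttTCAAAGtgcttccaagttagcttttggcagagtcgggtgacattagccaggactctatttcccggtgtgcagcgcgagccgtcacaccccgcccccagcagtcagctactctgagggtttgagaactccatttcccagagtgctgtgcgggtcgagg
Gsk3b, chr16:38088751-38089000, plus strand: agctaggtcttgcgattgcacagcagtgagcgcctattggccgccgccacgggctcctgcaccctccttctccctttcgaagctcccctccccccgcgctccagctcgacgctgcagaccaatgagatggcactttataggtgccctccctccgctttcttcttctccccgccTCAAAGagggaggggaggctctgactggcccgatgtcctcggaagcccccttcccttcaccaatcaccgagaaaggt
Axin2, chr11:108920099-108920348, plus strand: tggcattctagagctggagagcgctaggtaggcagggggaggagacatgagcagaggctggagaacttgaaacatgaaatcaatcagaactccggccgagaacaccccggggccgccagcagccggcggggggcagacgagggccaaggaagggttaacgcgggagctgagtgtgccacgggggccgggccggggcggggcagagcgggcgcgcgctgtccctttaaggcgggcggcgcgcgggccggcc
The Lef1 window held 2 matches, which began 180 and 120 bases before the start, those of Gsk3a and Gsk3b 1 each, at 157 and 77 bases before it.

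The rest of the pathway was read from a list of 131 other Wnt genes, of which 130 were matched and 59 tested. Between the libraries labelled KO and fl, 3 were called higher and 1 lower, or 6.78% of those tested, against 11.0% of all genes tested. An unadjusted p under 0.05 was reached by 11. Quantile normalization gave 3 higher and 2 lower, and voom 4 and 4. The genes higher in KO were the targets Klf5 (5.97 ± 0.629 FPKM in fl and 8.24 ± 0.257 in KO), Cd24a (208 ± 2.98 and 279.6 ± 28.0) and the cyclin gene Ccnd2 (1.70 ± 0.263 and 2.67 ± 0.198; SD, n = 3 each), with limma adjusted p of 0.0111, 0.0236 and 0.0272. Rspo1, a secreted amplifier of Wnt signals that protects Frizzled receptors from Rnf43 and Znrf3, was lower, at 3.33 ± 0.482 FPKM in fl and 0.817 ± 0.327 in KO (adjusted p = 0.00174), and lower still in Gr_1, at 0.483 ± 0.161 (adjusted p = 4.2e-05 against fl).

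Wnt ligands themselves were scarce. The 19 Wnt genes together summed to 2.35 ± 0.215 FPKM in fl, 2.10 ± 0.661 in KO and 2.23 ± 0.439 in Gr_1, and no single one passed 1.95 FPKM. Of 24 ligand and R-spondin genes listed only Wnt11 and Rspo1 were tested, and of 13 secreted antagonists none. Between Gr_1 and fl 27 other Wnt genes were called higher and 9 lower, or 61.0% of the 59. Over all genes tested 61.4% were called, 30.0% higher and 31.4% lower. Upward went Klf5, Cd24a and the atypical cadherin Celsr3 (2.93 ± 0.0668 FPKM in fl and 6.12 ± 0.119 in Gr_1). So did the transcription factor gene Sox4, which is also one of the progenitor markers (2.68 ± 0.202 and 10.2 ± 2.28). Downward went Rspo1, the AP-1 gene Jun (325 ± 8.38 and 116.0 ± 11.1), the survival gene Birc5 and the co-repressor gene Ctbp2. With the 10 most abundant genes left out of the scaling the split was 22 higher and 14 lower, and under voom 18 higher and 26 lower.

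Between the libraries labelled KO and Gr_1, 7 of the 59 were called higher in KO and 28 lower (59.3%). The background was 55.7% of all genes, 26.7% higher and 28.9% lower. Birc5, Ctbp2, Zbtb16 and Celsr1 had the smallest adjusted p of those higher in KO. On the lower side stood Celsr3, Ctnnbip1, whose product keeps beta-catenin from TCF factors (6.72 ± 0.642 FPKM in Gr_1 and 1.83 ± 0.404 in KO), the urokinase receptor gene Plaur (329 ± 46.6 and 105.8 ± 17.0) and the co-activator gene Crebbp (8.94 ± 0.341 and 5.03 ± 0.189; SD, n = 3 each). With the 10 most abundant genes left out the split was 11 higher and 19 lower, and under voom 23 higher and 18 lower. The median log2 difference of the 59 was -0.02, 0.14 and -0.21 in the 3 comparisons, against -0.01, -0.03 and 0.01 over all genes tested.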

How the data were processed

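Total RNA libraries of 3 groups were compared from a table of FPKM values that the authors deposited, 1 column per library. Tools named in the submitters' processing notes are DESeq2 1.16.1 and featureCounts 1.5.0-p3, without their roles, with the builds mm10 and GRCm38. No source used here names the aligner. Symbols, coordinates and exon lengths came from GENCODE M21 (GRCm38), which paired 54409 of the 54532 gene IDs with a symbol. Multiplying FPKM by exon length gave fragments that were whole within 0.02 fragments for 97.2% to 97.5% of values, and these back the voom alternative.

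The 12289 genes that reached 1 FPKM in 3 or more libraries were tested. Their log2(FPKM + 1), with a pseudocount of 1, entered a limma fit (version 3.58.1 under R 4.3.3) of all 9 libraries with 1 term per group and a trended variance prior. Two-sided p-values were adjusted over all of them by Benjamini-Hochberg, with calls made under 0.05. The script was tested on simulated data. The members and lists were chosen with earlier results of these data known. Every member called in any comparison is named with its value in each library, as are Ctnnb1, Tcf7l2 and Ccnd1 whatever their values, and up to 4 called genes per direction of the other Wnt list, by smallest adjusted p. Replicates of a group differed by more than sampling noise, at a mean chi-square per gene of 4.64 to 51.7. Title letters did not pair the libraries: same-letter correlations of deviations ran from -0.06 to 0.14. Tables and figures used Python 3.11.15, pandas 2.3.3, numpy 2.4.6 and matplotlib 3.10.9.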

Additional observations from a re-analysis of the deposited data

How the results depend on the processing

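For the members in KO against fl, 3 were called, and 1 without a filter on low values, 1 (Myc) at a mean of at least 5 FPKM, 1 with the 2 groups fitted alone, 5 (2 higher, 3 lower) with quantile normalization, 5 (3 higher, 2 lower) under voom, and 1 (Lrp5) with KO A as the only KO library, a setting chosen after seeing the data in which the lone library is assumed to vary like the other groups. Leaving out 1 library gave 0 to 5. In Gr_1 against fl, 13 were called, 7 at a mean of at least 5 FPKM (of 12 tested, so fewer could be) and 11 to 15 without 1 library. In KO against Gr_1, 17 were called, 9 with that filter, 9 with KO A alone, and 9 to 18 without 1 library, the lowest without Gr_1 A (9), Gr_1 B (10) and KO C (11).

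Of the other Wnt genes 4 were called in KO against fl, 8 under voom (4 higher, 4 lower) and 1 to 5 without 1 library, the 1 being without KO C. In Gr_1 against fl 36 were called, 23 with the stricter filter and 31 to 37 without 1 library. In KO against Gr_1 35 were called, 20 with KO A alone and 27 to 42 without 1 library. Dvl2, Dvl3 and Pygo2 reversed under voom in KO against Gr_1, to 0.0152, 0.0409 and 0.0504. Left-out abundant genes moved the median of all genes to -0.14 in Gr_1 against fl and 0.18 in KO against Gr_1. Of 971 other values over 19 members and the settings run, 866 stayed on their side of the threshold. Of these 19, all uncalled, changed sign. A further 77 no longer passed it with their sign kept, and 25 newly passed it. The 3 reversed values of Dvl2, Dvl3 and Pygo2 no longer passed it either. The cause was not tested.

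With the title letter as a replicate block 2, 13 and 15 members were called in the 3 comparisons with Fzd4 lost in KO against fl (adjusted p = 0.0515) and Pygo2 (0.0619) and Jag1 (0.0537) in KO against Gr_1. The letters are not stated to pair libraries. At this depth members under about 0.2 FPKM rest on few fragments, and their differences were not tested.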
